A study of Mus musculus with 6 samples.

Results

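The detoxification and aldehyde-clearing enzymes were 80 protein-coding genes of the mouse cornea. They were chosen by symbol, as members of the Aldh, Adh, Gst, Cyp1 to Cyp4, Ces, Ugt1, Ugt2, Fmo and Sult families, and by level, at 1 TPM or more in at least 2 of 6 libraries. TPM, transcripts per 1000000, is a gene's share of its library after division by transcript length. These families hold 196 protein-coding genes in the table, so 116 of them fell below that level, and 73 of the 116 were listed at 0 TPM in every library. Of all 54446 gene rows, 14748 reached the same level. Corneas came from wild-type C57BL/6 mice aged 6 weeks and fell into 3 groups of 2 samples. The first group was wounded and received RNase III, an enzyme that cuts double-stranded RNA, by injection under the conjunctiva. The second was wounded without RNase III, and the third was unwounded. Surgery took away a part of the limbus and of the stroma, together with corneal epithelium. The labels used here name neither a vehicle injection for the wounded group nor the time between surgery and collection. They also do not say whether the samples of a group were separate animals, so each p-value reflects only the spread between these samples, which may be technical.

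Alcohol dehydrogenases turn alcohols, retinol among them, into aldehydes, and aldehyde dehydrogenases turn aldehydes into acids. Cytochromes P450 and flavin monooxygenases add oxygen to lipids and foreign compounds, and carboxylesterases cleave esters. Glutathione transferases, sulfotransferases and glucuronosyltransferases attach glutathione, sulfate or glucuronic acid, after which the product can be exported. The cornea faces light and air, and peroxidation of its lipids yields reactive aldehydes such as hydroxynonenal. Aldh3a1 is so abundant in the corneal epithelium of mammals that it is counted among the corneal crystallins, and it clears such aldehydes.

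Each library of the table summed to 1000000 TPM, so the number of reads behind a value is unknown. Genes above 0 TPM numbered 16751 and 19455 with RNase III, 19926 and 20551 in wounded corneas, and 20606 and 21033 in unwounded corneas. Replicates correlated across genes with Pearson coefficients of 0.943 with RNase III, 0.956 in wounded corneas and 0.968 in unwounded corneas, and genes are not independent replicates. The label cornea was checked with 13 markers of the differentiated epithelium. All 13 were found, and they summed to 23772 and 15776 TPM with RNase III, 15656 and 23698 TPM in wounded corneas, against 28833 and 27079 TPM in unwounded corneas. Summed levels of 9 stromal keratocyte markers were 1020 and 1675 TPM with RNase III, 3578 and 3937 TPM in wounded corneas, against 6778 and 5222 TPM in unwounded corneas. Wounded replicate 1 stood apart by 9262 TPM over 12 neutrophil markers, against 587 TPM in wounded replicate 2 and 1559 and 1543 TPM with RNase III, and 143 and 93.8 TPM in unwounded corneas. In bulk tissue, fewer cells of a type and less RNA per cell cannot be told apart.

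Most of the detoxification transcripts came from 3 genes. Gsto1, an omega-class glutathione transferase that reduces dehydroascorbate (ENSMUSG00000025068, chr19:47854970-47864790, plus strand, GRCm38), ranked 1 and 2 among all genes of the table in the unwounded libraries. It stood at 19102 and 12647 TPM with RNase III, at 7314 and 10107 TPM in wounded corneas, and at 29925 and 25714 TPM in unwounded corneas. The groups did not overlap: both wounded libraries were lowest, both RNase III libraries lay between, and both unwounded libraries were highest. Aldh3a1 (chr11:61207537-61218421, plus strand) stood at 5962 and 3930 TPM with RNase III, at 4971 and 8101 TPM in wounded corneas, and at 10131 and 9583 TPM in unwounded corneas. All 4 wounded libraries lay below the unwounded pair, and the wounded groups with and without RNase III overlapped. Gsta4, the alpha-class transferase that conjugates hydroxynonenal (chr9:78182774-78209349, plus strand), stood at 3237 and 3589 TPM with RNase III, at 4383 and 4049 TPM in wounded corneas, and at 4471 and 3915 TPM in unwounded corneas. Its wounded and unwounded libraries overlapped, and both RNase III libraries lay below them.

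The sum over all 80 members was 3.07% and 2.25% of the library with RNase III, 1.89% and 2.49% in wounded corneas, and 4.96% and 4.37% in unwounded corneas. Gsto1, Aldh3a1 and Gsta4 made up 2.83% and 2.02% of the library with RNase III, 1.67% and 2.23% in wounded corneas, and 4.45% and 3.92% in unwounded corneas. The other 77 members summed to 0.240% and 0.231% with RNase III, 0.225% and 0.261% in wounded corneas, and 0.510% and 0.450% in unwounded corneas. Both parts of the sum were thus lower in all 4 wounded libraries than in either unwounded library. By family, 18 of 21 Aldh genes, 5 of 6 Adh genes and 19 of 22 Gst genes were members. Of the P450 families, 1 of 3 Cyp1, 10 of 49 Cyp2, 1 of 9 Cyp3 and 9 of 20 Cyp4 genes were members. The rest were 7 of 19 Ces, 3 of 7 Fmo, 5 of 21 Sult, 2 of 9 Ugt1 and 0 of 10 Ugt2 genes. The highest value among genes left out was 6.18 TPM, for Sult4a1 in unwounded replicate 2. Just inside the level were Aldh1l2, Cyp2u1 and Cyp4b1, each with 1.06 TPM in the second-highest library, and just outside were Gsto2 at 0.97, Ugt1a6b at 0.89 and Cyp4f39 at 0.78 TPM. In all 6 libraries 60 members reached 1 TPM, and 6 members (Ces1h, Ces2b, Cyp2w1, Cyp4a12a, Cyp4b1 and Sult1b1) reached it only in unwounded corneas, so these 6 had to be lower elsewhere.

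**Figure D1:**
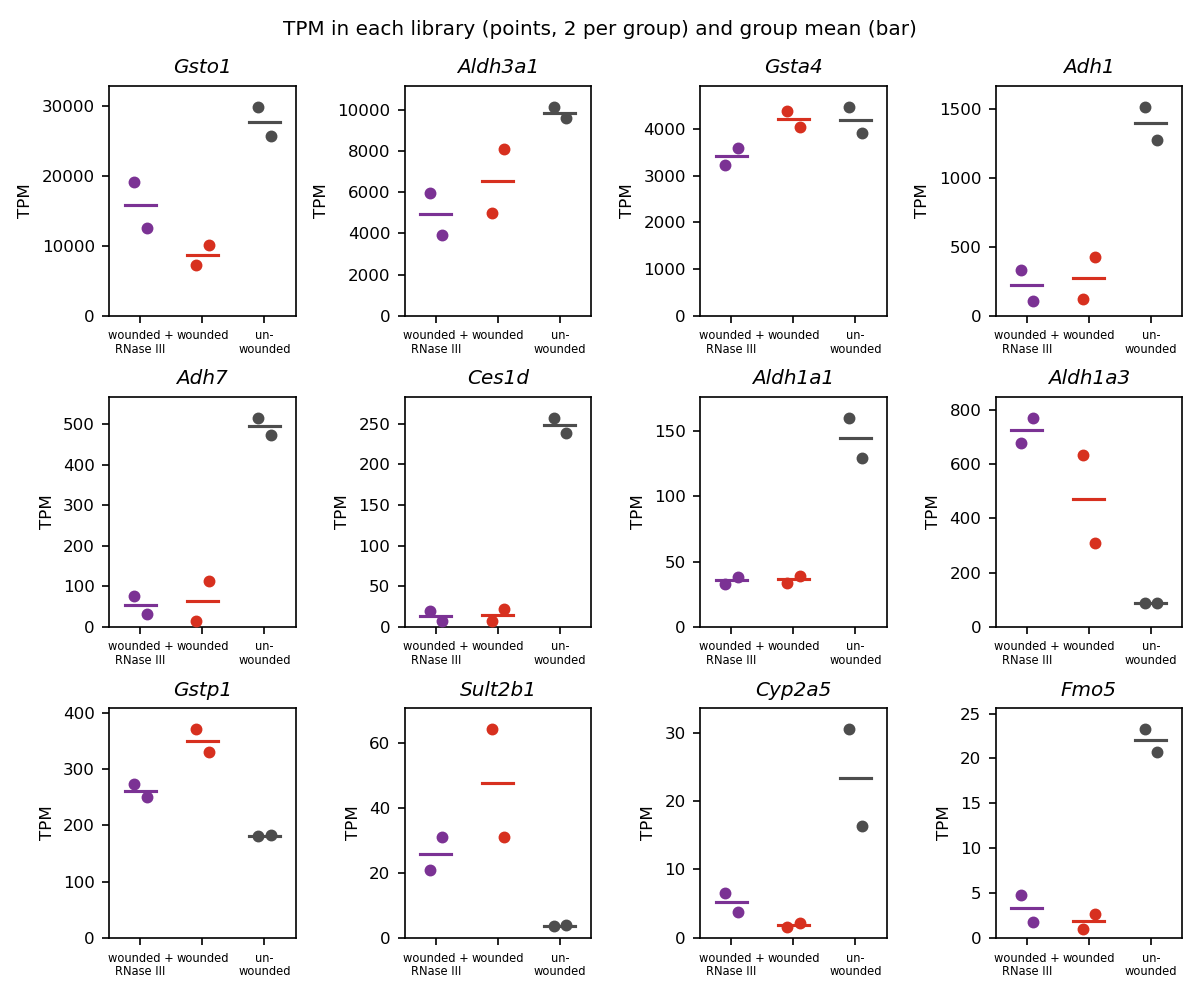
TPM of 12 detoxification genes in each library (points) with the group mean (bar), for wounded corneas with RNase III, wounded corneas and unwounded corneas, 2 libraries each, on linear axes that start at 0. Adh1, Adh7, Ces1d, Aldh1a1, Cyp2a5 and Fmo5 have all 4 wounded libraries far below both unwounded ones, Aldh1a3 and Sult2b1 have them above, and Gsta4 lies between 3237 and 4471 TPM.

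Many of these enzymes fell after wounding and few rose. In limma on log2(TPM + 1), with Benjamini-Hochberg adjustment over 14748 genes and a threshold of 0.05, 23 of the 80 members fell in wounded against unwounded corneas and 4 rose. Of the members 28.8% thus fell, against 9.83% of all genes tested, and 5.0% rose, against 6.12% of all genes. Of the 23 that fell, 4 (Ces1h, Cyp2w1, Cyp4a12a and Sult1b1) had reached 1 TPM only in unwounded corneas. Without the genes that passed the level through 1 group only, 19 of 74 members fell (25.7%, against 9.7% of all genes) and 4 rose. In either direction 27 members passed (33.8%), and 15.9% of all genes did. Both wounded libraries lay below both unwounded libraries for 44 members (55.0%, against 46.8% of all genes) and above both for 13 (16.2%, against 25.3%). The 44 include the 6 members that reached 1 TPM only in unwounded corneas and had to be lower. The median log2 difference was -0.49 over the members and -0.26 over all genes. Dividing by median-of-ratios size factors moved the median of all genes to -0.011 and that of the members to -0.25, and then 13 members fell and 6 rose, 19 of 80 in all, while 17.1% of all genes passed. That left 68.4% of the called members lower, against 85.2% on the TPM scale. The 17.1% is for both directions together. Of the 2352 genes called on the TPM scale, 1450 were lower. With this scaling both wounded libraries lay below both unwounded ones for 36 members (45.0%, against 35.6% of all genes). They lay above both for 18 members (22.5%, against 36.0%). Members that reached 1 TPM only in unwounded corneas are counted here too. The calls of Adh1, Adh7, Ces1e, Cyp2b19, Cyp2f2, Cyp3a13, Cyp4a12b, Fmo2, Gsto1 and Sult1b1 were lost with this scaling. All 23 members that fell had all 4 wounded libraries, with or without RNase III, below both unwounded libraries. For Ces1h, Cyp2w1, Cyp4a12a and Sult1b1 this was fixed by the level that chose them. Over the members the median difference from the unwounded mean was -0.72 in wounded replicate 1 and -0.29 in wounded replicate 2. Over all genes these medians were -0.35 and -0.18. Neither the share of the 23 nor the order of replicates given next was counted over all genes. Wounded replicate 1, the neutrophil-rich library, was below wounded replicate 2 in 20 of the 23 and in 56 of all 80 members. Without that library 1 member passed, Aldh1a3, and 71 of the 14748 genes did (0.481%). Without either unwounded library none of the 80 passed, and 25 or 26 of all genes did. The part of neutrophil RNA and of library composition in these differences was not tested.

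**Figure D2:**
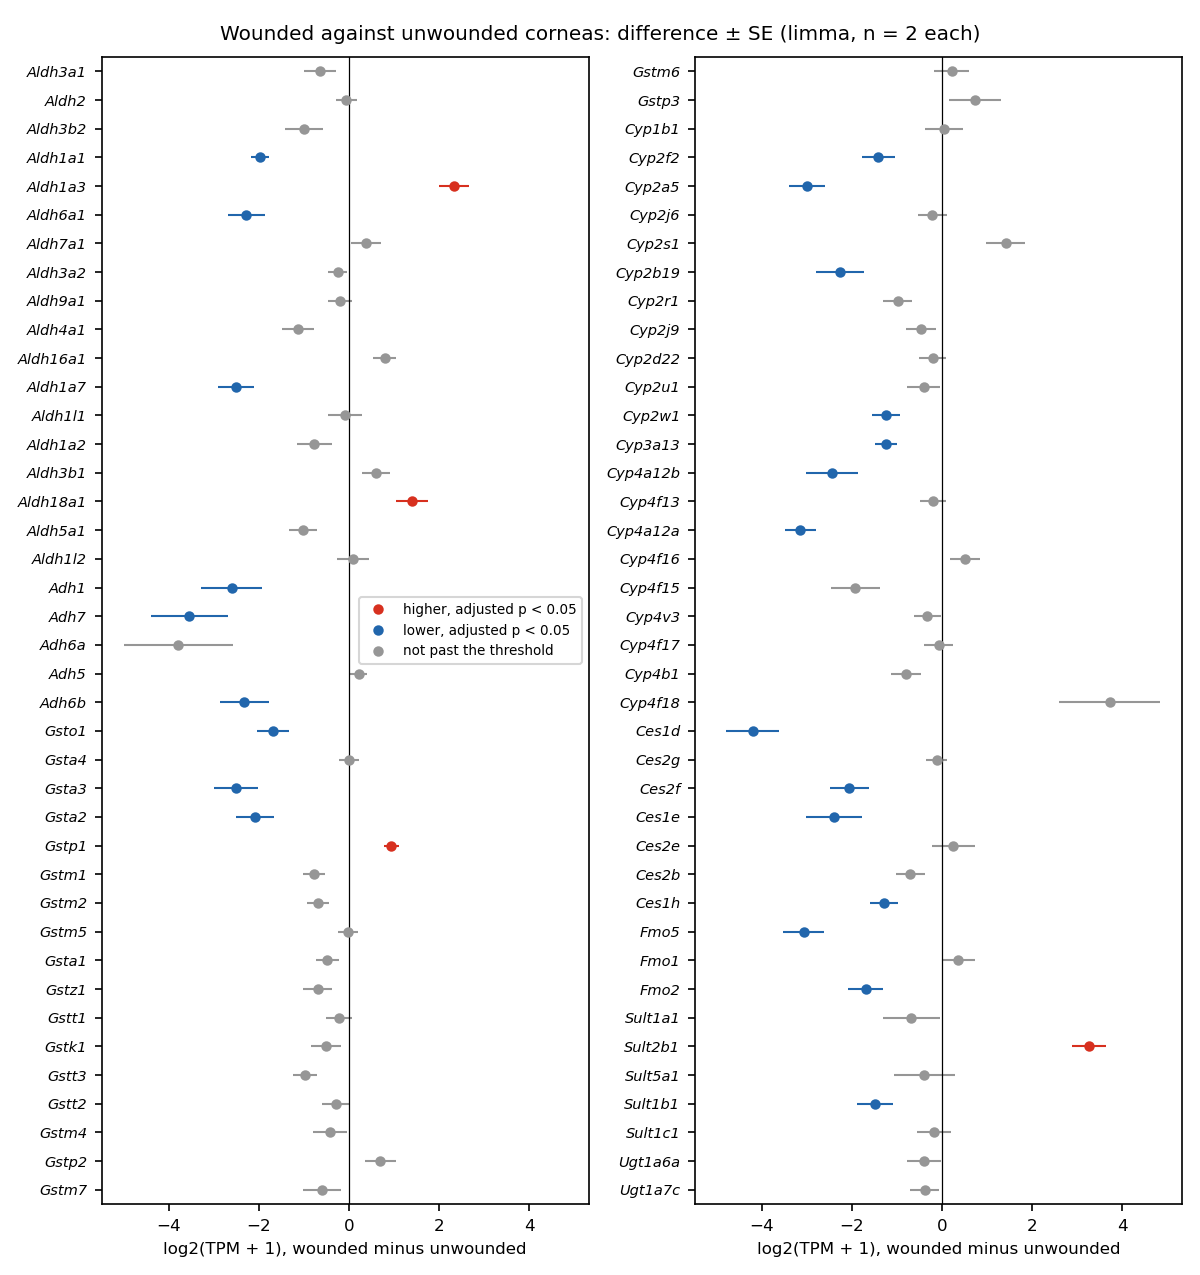
Difference in log2(TPM + 1) between wounded and unwounded corneas (points, wounded minus unwounded) with its standard error from limma (bars), for all 80 members in 2 columns, ordered by family and within a family by level in unwounded corneas. The 23 members past the threshold and lower are blue, the 4 past it and higher are red (Sult2b1, Aldh1a3, Aldh18a1 and Gstp1), and the rest are grey.

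Alcohol dehydrogenases lie side by side on chromosome 3 (chr3:138217760-138455499, GRCm38), and 3 of the 5 members fell, while 9.83% of all genes fell. Adh7, the class IV enzyme that oxidises retinol in surface epithelia, stood at 75.9 and 32.7 TPM with RNase III, at 15 and 113 TPM in wounded corneas, and at 515 and 473 TPM in unwounded corneas. The groups of wounded and unwounded corneas were far apart, although the wounded pair itself spread widely. Adh7 fell by 3.54 on the log2 scale (SE 0.86, limma adjusted p = 0.0413), which is 11.6-fold on the TPM + 1 scale. Adh1, the class I enzyme that acts on ethanol and retinol, stood at 332 and 110 TPM with RNase III, at 123 and 423 TPM in wounded corneas, and at 1513 and 1277 TPM in unwounded corneas. It fell by 2.60 (SE 0.68, limma adjusted p = 0.0472). After median-of-ratios scaling neither gene passed, at adjusted p of 0.0509 for Adh7 and 0.0708 for Adh1. Adh6b, of class V, fell by 2.31 (SE 0.54, limma adjusted p = 0.0382) and stood at 3.46 and 13.8 TPM in wounded corneas, against 40.6 and 38.2 TPM in unwounded corneas. Its neighbour Adh6a was at 0.63 and 22.4 TPM in wounded corneas and at 74.3 and 95.3 TPM in unwounded corneas. These groups did not overlap, yet the difference of -3.79 had an SE of 1.2 and missed the threshold (limma adjusted p = 0.0753). Adh5, the class III enzyme that clears formaldehyde bound to glutathione, did not pass, with 59.2 and 76.2 TPM with RNase III, 65.1 and 67.9 TPM in wounded corneas, against 55.3 and 58.7 TPM in unwounded corneas (log2 difference 0.22, SE 0.19, limma adjusted p = 0.44). The deposited table was not stated to be counted by strand, and exons of Adh7 and Adh1 overlap antisense transcripts, so reads of each pair cannot be told apart.

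The stretches just before 4 of these starts are shown because the genes share 1 cluster and differ in how they moved. They were taken from the RefSeq table for GRCm38.p6, all on the plus strand, with each CpG dinucleotide in capitals. The windows are chr3:138217673-138217772 for Adh7, chr3:138277485-138277584 for Adh1, chr3:138313186-138313285 for Adh6a and chr3:138442993-138443092 for Adh5, whose table entry has 2 starts, the second of which is used here.
Adh7: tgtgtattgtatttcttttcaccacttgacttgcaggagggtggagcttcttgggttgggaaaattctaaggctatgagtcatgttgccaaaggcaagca
Adh1: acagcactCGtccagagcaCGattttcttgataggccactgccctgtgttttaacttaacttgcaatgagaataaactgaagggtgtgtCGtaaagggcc
Adh6a: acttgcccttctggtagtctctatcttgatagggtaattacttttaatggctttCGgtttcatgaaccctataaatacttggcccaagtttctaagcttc
Adh5: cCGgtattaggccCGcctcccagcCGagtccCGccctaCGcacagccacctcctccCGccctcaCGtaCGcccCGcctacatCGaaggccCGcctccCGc
Adh5, which of these 4 differed least between groups, had 12 CpG in these 100 bases, against 0 for Adh7, 3 for Adh1 and 1 for Adh6a. Before its other start Adh5 had 0, as few as Adh7, so this contrast depends on the start chosen.

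Among the 18 aldehyde dehydrogenases 3 fell and 2 rose, while 9.83% of all genes fell and 6.12% rose. The family median was -0.22. Aldh3a1 itself did not pass in wounded against unwounded corneas, at 6536 ± 2214 TPM in wounded corneas and 9857 ± 387 TPM in unwounded corneas (SD, n = 2 each). The log2 difference was -0.63 with an SE of 0.35 (limma adjusted p = 0.229). The enzymes that make retinoic acid from retinaldehyde moved apart. Aldh1a1 stood at 33.2 and 38.3 TPM with RNase III, at 33.9 and 38.7 TPM in wounded corneas, and at 160 and 129 TPM in unwounded corneas. It fell by 1.96 (SE 0.20, limma adjusted p = 0.00788), with the 4 wounded libraries within a few TPM of each other. Aldh1a3 stood at 678 and 771 TPM with RNase III, at 635 and 309 TPM in wounded corneas, and at 87.8 and 86.6 TPM in unwounded corneas. It rose by 2.33 (SE 0.33, limma adjusted p = 0.0147), 5.04-fold on the TPM + 1 scale, and all 4 wounded libraries were above the unwounded pair. Aldh1a3 was thereby the second most abundant aldehyde dehydrogenase after Aldh3a1 in all 4 wounded libraries. Aldh1a2, the third of them, was low, at 3.90 and 2.83 TPM in wounded corneas, against 6.61 and 6.12 TPM in unwounded corneas, and did not pass (log2 difference -0.77, SE 0.39, limma adjusted p = 0.204).

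Aldh1a7, a close relative of Aldh1a1 and its neighbour on chromosome 19, fell by 2.5 (SE 0.39, limma adjusted p = 0.0187), to 0.95 and 2.46 TPM in wounded corneas, against 12.7 and 14.8 TPM in unwounded corneas. Aldh6a1, a mitochondrial enzyme of valine breakdown, fell by 2.28 (SE 0.41, limma adjusted p = 0.0228), to 2.81 and 7.81 TPM in wounded corneas, against 27.6 and 26.6 TPM in unwounded corneas. Aldh18a1, which makes a precursor of proline, rose by 1.40 (SE 0.35, limma adjusted p = 0.0436), to 18.7 and 9.97 TPM in wounded corneas, against 3.93 and 5.29 TPM in unwounded corneas. The other mitochondrial enzyme among the abundant ones, Aldh2, which clears acetaldehyde, was at 170 and 174 TPM in wounded corneas and at 189 and 168 TPM in unwounded corneas. These overlapped, and its difference was -0.053 on the TPM scale and 0.24 after median-of-ratios scaling, past the threshold in neither. Aldh3b2, which acts on fatty aldehydes, stood at 47.5 and 113 TPM in wounded corneas and at 159 and 135 TPM in unwounded corneas (log2 difference -0.99, SE 0.41, limma adjusted p = 0.136). Of its transcript 50-mers 24.2% also occur in Aldh3b3, so its reads may be split.

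Of the 21 P450 genes 7 fell and none rose, while 9.83% of all genes fell and 6.12% rose. Cyp2w1 and Cyp4a12a had reached 1 TPM only in unwounded corneas. Without such genes 5 of 18 fell (27.8%, against 9.7% of all genes). The Cyp2a, Cyp2b and Cyp2f members, which lie within chr7:26757142-27133660, all 3 fell, but after median-of-ratios scaling Cyp2f2 (limma adjusted p = 0.0956) and Cyp2b19 (limma adjusted p = 0.05) did not pass. Cyp2f2, known in mouse lung for activating naphthalene, stood at 19.6 and 16.4 TPM with RNase III, at 25.4 and 32.3 TPM in wounded corneas, and at 114 and 53.6 TPM in unwounded corneas (log2 difference -1.42, SE 0.36, limma adjusted p = 0.0457). Cyp2a5, which hydroxylates coumarin and nicotine, stood at 6.59 and 3.79 TPM with RNase III, at 1.64 and 2.22 TPM in wounded corneas, and at 30.6 and 16.3 TPM in unwounded corneas (log2 difference -3.00, SE 0.40, limma adjusted p = 0.0136). Of its transcript 50-mers 37.0% are shared, mostly with Cyp2a4, so its reads may be split. Cyp2b19, described in mouse skin as a fatty acid epoxygenase of keratinocytes, fell to 0.17 and 0.30 TPM in wounded corneas, against 4.42 and 5.52 TPM in unwounded corneas. For Cyp2f2 and Cyp2a5 unwounded replicate 1 was the higher of the pair, and all 4 wounded libraries were below both.

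Cyp4a12b and Cyp4a12a, fatty acid omega-hydroxylases, fell, with log2 differences of -2.44 (SE 0.57, limma adjusted p = 0.038) and -3.14 (SE 0.34, limma adjusted p = 0.00859) in that order. Cyp4a12b stood at 15.7 and 49.2 TPM in wounded corneas and at 160 and 152 TPM in unwounded corneas, and Cyp4a12a at 0.03 and 0.39 TPM in wounded corneas and at 10.9 and 8.40 TPM in unwounded corneas. They share 49.4% and 48.9% of their transcript 50-mers, so how reads were divided between them is uncertain. The fall of Cyp4a12a was fixed in direction by the level that chose it. Cyp3a13 fell by 1.24 (SE 0.24, limma adjusted p = 0.0262), to 12.7 TPM in both wounded libraries, against 31.0 and 31.7 TPM in unwounded corneas. After median-of-ratios scaling Cyp3a13 (limma adjusted p = 0.0571) and Cyp4a12b (limma adjusted p = 0.0513) did not pass. Cyp2w1, at 1.5 and 1.24 TPM in unwounded corneas, was listed at 0 TPM in both wounded libraries. Cyp1b1, which acts on oestrogens and retinol, overlapped between groups, with 8.52 and 6.08 TPM in wounded corneas, against 5.86 and 8.33 TPM in unwounded corneas. The largest positive P450 difference belonged to Cyp4f18, which in mouse neutrophils degrades leukotrienes. It stood at 0.46 and 10 TPM with RNase III, at 37.7 and 5.27 TPM in wounded corneas, and at 0.22 and 0.15 TPM in unwounded corneas. The difference of 3.72 had an SE of 1.1 and missed the threshold (limma adjusted p = 0.0655). Its highest value was in the library with the highest neutrophil marker sum, and the part of those cells was not tested. Cyp2j6 and Cyp4f13, both among the more abundant P450 genes of unwounded corneas, overlapped between groups, with differences of -0.22 and -0.21. Cyp2s1, a P450 of surface epithelia, was at 47.3 and 24.9 TPM in wounded corneas and at 11.8 and 12.7 TPM in unwounded corneas (log2 difference 1.42, SE 0.44, limma adjusted p = 0.0692).

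Of the 3 flavin monooxygenases, which oxidise nitrogen and sulfur groups, 2 fell, while 9.83% of all genes fell. Fmo5 stood at 4.76 and 1.82 TPM with RNase III, at 1.03 and 2.67 TPM in wounded corneas, and at 23.3 and 20.8 TPM in unwounded corneas (log2 difference -3.07, SE 0.46, limma adjusted p = 0.0166). Fmo2 fell by 1.69 (SE 0.39, limma adjusted p = 0.0367), to 2.41 and 0.98 TPM in wounded corneas, against 8.31 and 6.56 TPM in unwounded corneas, and did not pass after median-of-ratios scaling (limma adjusted p = 0.0606). Fmo1, its neighbour on chromosome 1, overlapped between groups, with 19.9 and 10.6 TPM in wounded corneas, against 12.5 and 9.82 TPM in unwounded corneas.

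Of the carboxylesterases, Ces1d and Ces1e fell, as did Ces1h, which had reached 1 TPM only in unwounded corneas, and 1 of 4 Ces2 members fell. Over all genes 9.83% fell. The 2 clusters lie on the same chromosome (chr8:93166068-93379725 and chr8:104831572-104969537). Ces1d, which hydrolyses triglycerides and retinyl esters, had the largest fall of all 80 members. It stood at 19.1 and 7.18 TPM with RNase III, at 6.77 and 22.5 TPM in wounded corneas, and at 257 and 239 TPM in unwounded corneas. The highest of the 4 wounded libraries, at 22.5 TPM, was far below the lower unwounded one. The log2 difference was -4.20 (SE 0.59, limma adjusted p = 0.0147), 18.4-fold on the TPM + 1 scale. Ces1e fell by 2.39 (SE 0.62, limma adjusted p = 0.0475) and had an adjusted p of 0.0646 after median-of-ratios scaling. Ces1h was at 1.32 and 1.61 TPM in unwounded corneas and listed at 0 TPM in all 4 wounded libraries. Ces2f fell by 2.06 (SE 0.43, limma adjusted p = 0.0306), to 6.62 and 8.31 TPM in wounded corneas, against 33.4 and 34.9 TPM in unwounded corneas. Its neighbour Ces2g was at 29.6 and 33.9 TPM in wounded corneas and at 32.7 and 36.4 TPM in unwounded corneas, and these overlapped.

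Of the 19 glutathione transferases 3 fell and 1 rose. Over all genes 9.83% fell and 6.12% rose, so these counts are not read as a result about the family. Gsto1 averaged 8710 ± 1975 TPM in wounded corneas and 27820 ± 2978 TPM in unwounded corneas (SD, n = 2 each). It fell by 1.69 (SE 0.36, limma adjusted p = 0.0315), 3.23-fold on the TPM + 1 scale, and had an adjusted p of 0.115 after median-of-ratios scaling. The alpha class divided. Gsta3 stood at 69.6 and 61.5 TPM with RNase III, at 32.2 and 104 TPM in wounded corneas, and at 341 and 325 TPM in unwounded corneas (log2 difference -2.5, SE 0.49, limma adjusted p = 0.0271). Gsta2 fell by 2.08 (SE 0.43, limma adjusted p = 0.0306), to 48.8 and 106 TPM in wounded corneas, against 369 and 255 TPM in unwounded corneas. Gsta4, described above, differed by 0.0099 (SE 0.23, limma adjusted p = 0.979), so the abundant transferase for hydroxynonenal showed no difference beyond its spread. Gsta2 and Gsta1 share sequence, with 49.8% and 90.5% of their 50-mers found in other transcripts. Gstp1, of the pi class, rose by 0.94 (SE 0.17, limma adjusted p = 0.0222). It stood at 274 and 250 TPM with RNase III, at 371 and 330 TPM in wounded corneas, and at 181 and 182 TPM in unwounded corneas. The 3 groups of Gstp1 did not overlap, and 33.7% of its 50-mers are shared, mostly with Gstp2. None of the 6 mu-class members passed, with differences between -0.78 and 0.22, and none of the 3 theta-class members did.

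Sult2b1, which sulfates cholesterol in keratinocytes, had the largest rise among the 4 members that passed. It stood at 20.8 and 31.2 TPM with RNase III, at 64.4 and 31.1 TPM in wounded corneas, and at 3.62 and 3.93 TPM in unwounded corneas. All 4 wounded libraries were above both unwounded ones, and the rise was 3.26 (SE 0.38, limma adjusted p = 0.0106), 9.60-fold on the TPM + 1 scale. Exons of Sult2b1 overlap those of Lmtk3 on the other strand. Sult1b1, which sulfates thyroid hormone, was at 0 and 0.19 TPM in wounded corneas and at 2.58 and 1.63 TPM in unwounded corneas. It had reached 1 TPM only in unwounded corneas, so its fall was fixed in direction by the level that chose it. Its call was lost after median-of-ratios scaling. Sult1a1, for phenols, was at 3.99 and 8.78 TPM in wounded corneas and at 11.3 and 9.24 TPM in unwounded corneas and did not pass. Sult5a1 was carried by unwounded replicate 2, at 5.21 TPM against 0.45 TPM in replicate 1. Of the glucuronosyltransferases, Ugt1a6a was at 17.8 and 40.7 TPM in wounded corneas and at 31.6 and 40.8 TPM in unwounded corneas, and Ugt1a7c at 3.60 and 2.20 TPM in wounded corneas and at 3.87 and 4.14 TPM in unwounded corneas. Neither passed, and they share 52.1% and 53.7% of their 50-mers as the Ugt1a genes use the same last exons.

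**Figure D3:**
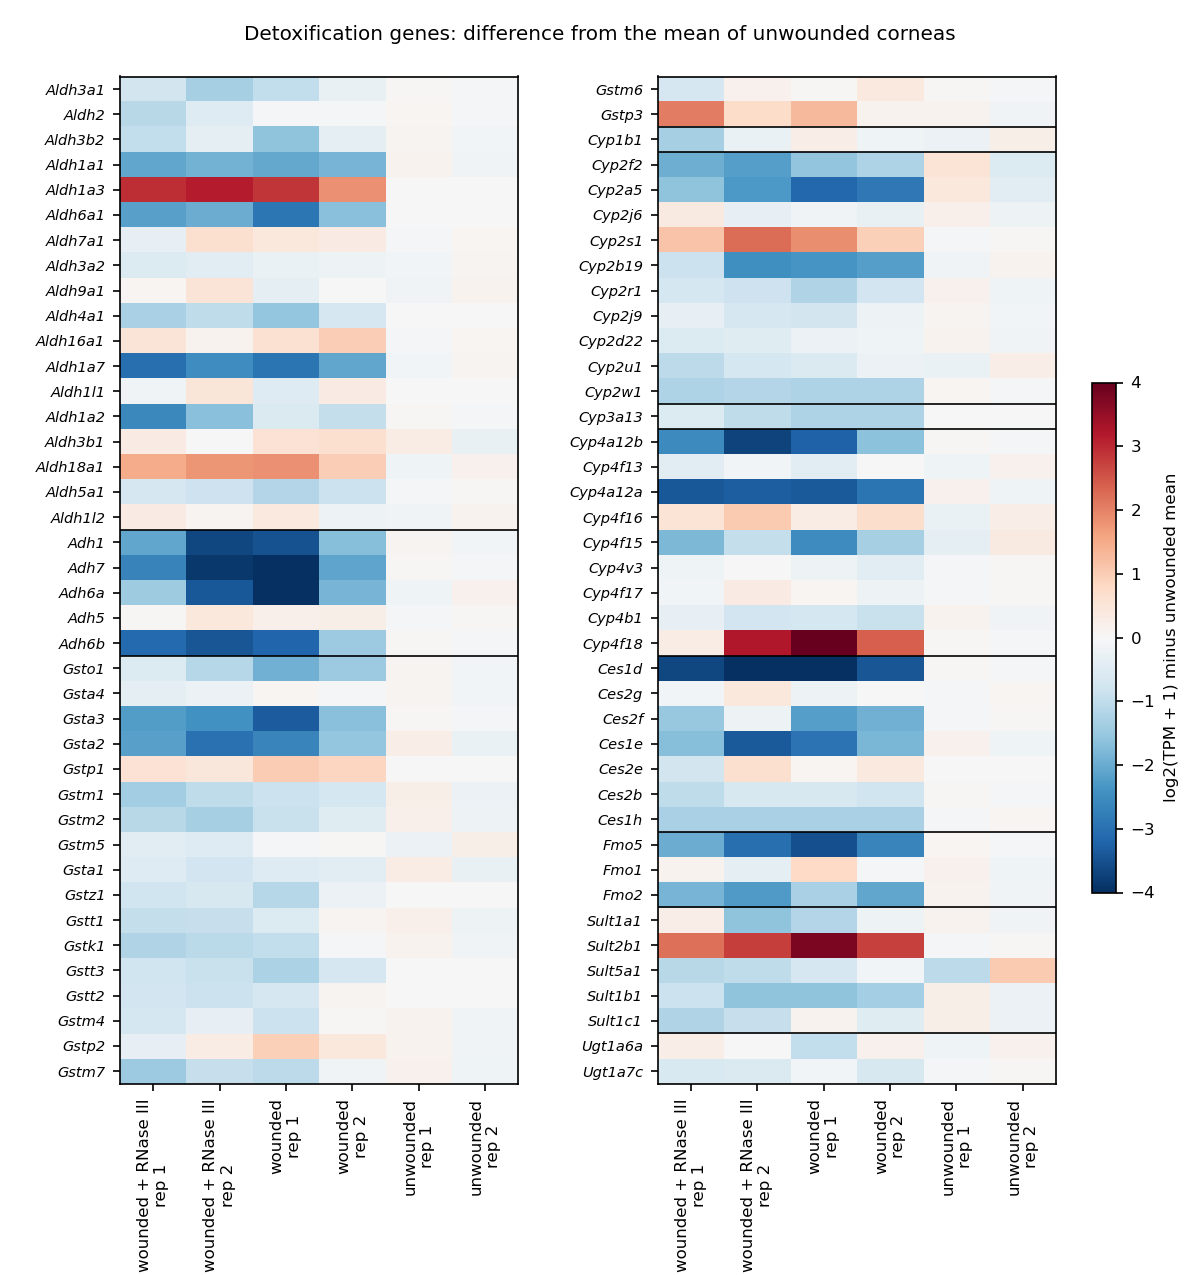
Difference of each library from the mean of the unwounded libraries in log2(TPM + 1), for the 80 members (rows, in 2 columns, with lines between families) in the 6 libraries (columns), red above and blue below, with colours capped at 4 in each direction. The Adh rows other than Adh5, the Ces1 rows, Aldh1a1, Aldh1a7, Aldh6a1, Fmo5 and Fmo2 are blue in all 4 wounded libraries, and Aldh1a3, Aldh18a1 and Sult2b1 are red in all 4.

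The members that fell were seen to be poor in CpG before their starts, and the counts below describe that observation on the same genes without testing it. Of the 80 members 63 had an entry in the RefSeq table, and genes with several starts got the mean over them. In the 250 bases before the start, the 19 members that fell had a median of 2 CpG (range 0 to 12), the 3 that rose had 18 (range 12 to 18), and the 41 others had 5 (range 0 to 40). The 19 include Ces1h, Cyp2w1 and Sult1b1, with 3, 5 and 2 CpG in that order. The fall of these genes was fixed in direction by the level that chose them, and no median was taken without them. All 10921 tested genes with an entry had a median of 15, namely 12 for those that rose, 16 for those that fell and 15 for the rest. The 63 members together had a median of 4.5, and among all genes those that fell did not have the lowest median. GC content had medians of 44.8% in the members that fell, 59.6% in those that rose and 55.6% in the others. Over all tested genes the order was the opposite, with 60.4% in those that fell and 57% in those that rose. The last 100 of these bases are shown for Ces1e (chr8:93229620-93229719, minus strand), Gsta2 (chr9:78347146-78347245, minus strand) and Gsto1 (chr19:47854873-47854972, plus strand), which fell, and for Gstp1 (chr19:4037913-4038012, minus strand) and Aldh18a1 (chr19:40588464-40588563, minus strand), which rose, with CpG in capitals.
Ces1e: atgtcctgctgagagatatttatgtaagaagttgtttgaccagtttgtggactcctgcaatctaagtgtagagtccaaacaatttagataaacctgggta
Gsta2: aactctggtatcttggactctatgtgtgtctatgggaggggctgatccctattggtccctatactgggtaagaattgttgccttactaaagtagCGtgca
Gsto1: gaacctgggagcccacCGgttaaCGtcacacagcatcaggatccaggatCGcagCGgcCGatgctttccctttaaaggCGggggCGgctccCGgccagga
Gstp1: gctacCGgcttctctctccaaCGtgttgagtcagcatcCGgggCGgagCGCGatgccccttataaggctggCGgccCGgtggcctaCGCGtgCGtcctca
Aldh18a1: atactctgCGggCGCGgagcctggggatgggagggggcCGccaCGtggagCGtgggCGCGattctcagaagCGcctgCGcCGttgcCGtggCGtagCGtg
Gsto1, the most abundant member, had the highest count of the 19 that fell, 12 CpG in 250 bases, equal to the lowest of the 3 that rose. Sult2b1, the other of the 3 that rose, is not printed. It had 4 CpG in the 100 bases before each of its 2 starts, against 8 for Gsto1.

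**Figure D4:**
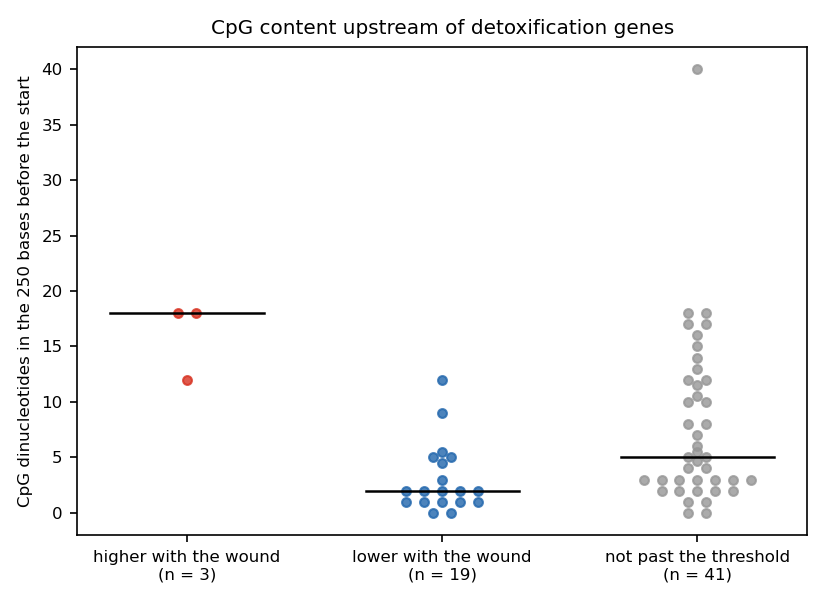
Number of CpG dinucleotides in the 250 bases before the transcription start (vertical axis) of the 63 members with a RefSeq entry, 1 point each, grouped by their call in wounded against unwounded corneas, with the median as a bar. The 19 members that fell have a median of 2, the 3 that rose 18 and the 41 others 5, with 1 of the others at 40. The 19 include Ces1h, Cyp2w1 and Sult1b1, which had reached 1 TPM only in unwounded corneas.

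Letters of 3 known elements were counted on both strands of the 250 bases before the start. The core of the antioxidant response element, TGACNNNGC, whose first letters are also those of the AP-1 site, occurred in 7 of 63 members (11.1%) and in 11.5% of all 27025 promoters of the table. Gsta3 was the only one of the 19 members that fell to hold it, and its window is given for that reason, at chr1:21240439-21240497 on the plus strand, with the match in capitals.
Gsta3: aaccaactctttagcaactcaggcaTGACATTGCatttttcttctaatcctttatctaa
The core of the xenobiotic response element, GCGTG, occurred in 17 of 63 members (27.0%) and in 30.9% of all promoters. Its letters hold a CpG. It was present in 3 of the 3 members that rose (Aldh18a1, Gstp1 and Sult2b1) and in 3 of the 19 that fell (Cyp2w1, Gsta2 and Sult1b1). Cyp2w1 and Sult1b1 had reached 1 TPM only in unwounded corneas, so their fall was fixed in direction. The shares of all promoters, which had a median of 6 CpG, include genes that were not tested here. The letters TATAAA occurred in 11 of 63 members (17.5%) and in 14.3% of all promoters. These are matches of letters, not shown binding sites.

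No detoxification gene passed the threshold in RNase III against wounded corneas. In limma 0 of 80 members passed, as did 0 of 14748 genes (0.0%). At an unadjusted p under 0.05, 3 members were higher and 4 lower, which is 3.75% and 5.0% against 7.82% and 4.64% of all genes. Groups that do not overlap are the other available description, since an exact two-sided permutation of 2 against 2 samples cannot go below 0.333. Both RNase III libraries were below both wounded libraries for 21 members (26.2%, against 14.3% of all genes), and above both for 8 members, against 25.9% of all genes. After median-of-ratios scaling the counts were 25 lower and 4 higher, against 20.5% and 20.3% of all genes. The median difference was -0.087 over the members and 0.091 over all genes. The glutathione transferases gave 10 of the 21 lower members, 10 of the 19 in that family, and 1 higher member, Gsto1.

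Gsto1 stood at 19102 and 12647 TPM with RNase III, against 7314 and 10107 TPM in wounded corneas. The difference was 0.85 (SE 0.36, limma adjusted p = 0.401), so it lay beyond the range of each pair without passing the test. Ces2f had 11.2 and 29.7 TPM with RNase III and 6.62 and 8.31 TPM in wounded corneas, a difference of 1.2 (SE 0.43, limma adjusted p = 0.366). Cyp2a5 had 6.59 and 3.79 TPM with RNase III and 1.64 and 2.22 TPM in wounded corneas (log2 difference 1.05, SE 0.40, limma adjusted p = 0.373), and 37.0% of its 50-mers are shared. All 3 are genes that had fallen in wounded against unwounded corneas. Aldh1a3, which had risen there, was at 678 and 771 TPM with RNase III and at 635 and 309 TPM in wounded corneas (log2 difference 0.70, SE 0.33, limma adjusted p = 0.438). The wounded libraries are shared by both comparisons, so these values are not independent of each other.

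On the lower side, Aldh1a2 stood at 0.24 and 1.32 TPM with RNase III and at 3.90 and 2.83 TPM in wounded corneas. The difference of -1.35 (SE 0.39) was the largest without overlap and missed the threshold (limma adjusted p = 0.317). Aldh2 was at 82.2 and 124 TPM with RNase III, at 170 and 174 TPM in wounded corneas, and at 189 and 168 TPM in unwounded corneas. Both RNase III libraries were thus below all 4 others, with a difference of -0.76 from wounded corneas (SE 0.23, limma adjusted p = 0.325). Gstt1, of the theta class, was at 14.8 and 15.1 TPM with RNase III, against 19.9 and 32.2 TPM in wounded corneas (log2 difference -0.72). Gstp2 was at 4.39 and 7.21 TPM with RNase III, against 12.2 and 8.06 TPM in wounded corneas (log2 difference -0.72), and 54.3% of its 50-mers are shared. Cyp1b1 was at 2.21 and 5.62 TPM with RNase III, against 8.52 and 6.08 TPM in wounded corneas (log2 difference -0.83). Sult1c1 was at 0.22 and 0.49 TPM with RNase III, against 2.09 and 1.0 TPM in wounded corneas (log2 difference -0.88). The last 2 are low in every library, and Aldh3a1 overlapped between the groups (log2 difference -0.39, SE 0.35, limma adjusted p = 0.662). Keratocyte markers were lower with RNase III in summed level, at 1020 and 1675 TPM, against 3578 and 3937 TPM in wounded corneas, and the part of the stroma in these values was not tested.

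**Figure D5:**
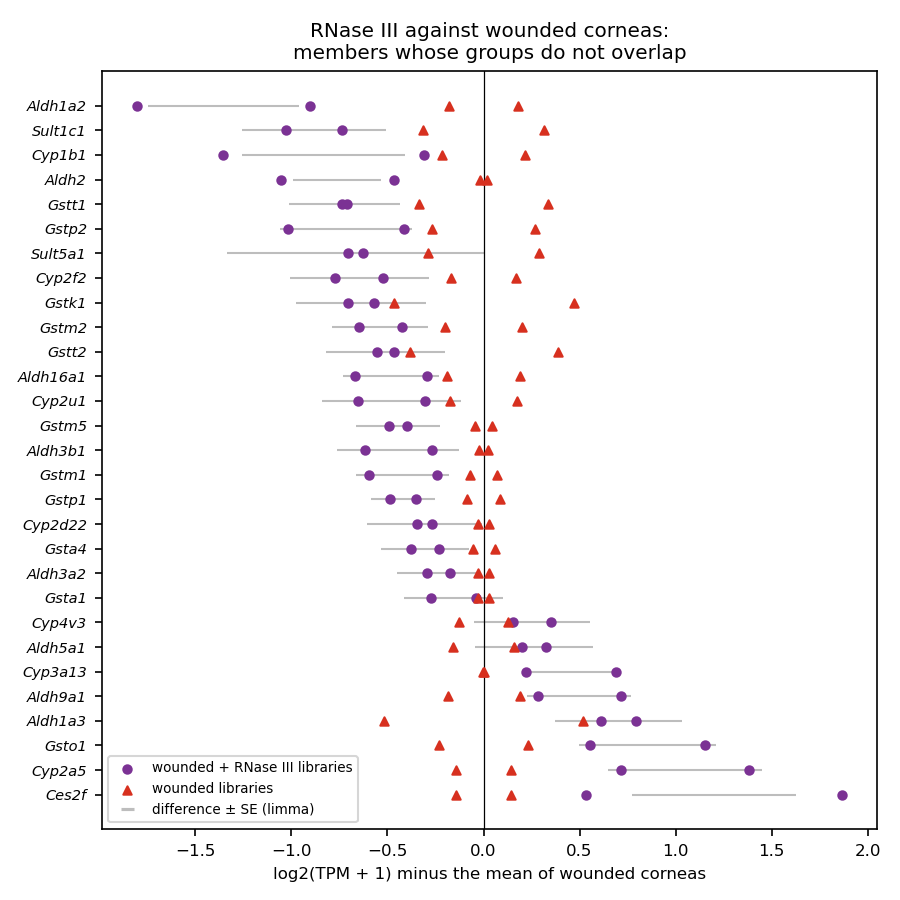
Values of log2(TPM + 1) in each RNase III library (purple circles) and wounded library (red triangles), less the mean of the wounded libraries, for the 29 members whose groups do not overlap. Grey bars span the limma difference plus and minus its standard error. The 21 lower members stand above in the plot and the 8 higher members below, none past the threshold.

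Against unwounded corneas, the wounded corneas with RNase III had 17 members lower and 3 higher past the threshold. That was 21.2% and 3.75% of the members, against 4.58% lower and 4.72% higher over all genes. In either direction 20 members passed, against 9.3% of all genes. Without the genes that passed the level through 1 group only, 16 of 74 members fell (21.6%, against 4.33% of all genes). With the same genes left out 3 rose (4.05%, against 4.84%). Both RNase III libraries lay below both unwounded libraries for 53 members (66.2%, against 39.7% of all genes) and above both for 10 (12.5%, against 26.3%). The 53 include the 6 members that reached 1 TPM only in unwounded corneas and had to be lower. The median difference was -0.79 over the members and -0.16 over all genes. Since this comparison and the one of wounded corneas use the same unwounded libraries, their calls are given side by side without a test. Among those that fell, the log2 difference was -4.28 for Ces1d, -3.27 for Adh6b, -2.74 for Aldh1a7 and -1.98 for Aldh1a1. In wounded against unwounded corneas the same genes had -4.20, -2.31, -2.5 and -1.96, in that order. Gstp1 did not pass here (log2 difference 0.52, limma adjusted p = 0.0864). Aldh1a2, Gstm1 and Gstm2 did, and fell. Gstm1, a mu-class transferase, was at 26.8 and 34.6 TPM with RNase III, at 39.1 and 43.1 TPM in wounded corneas, and at 84.6 and 59.8 TPM in unwounded corneas. Its 3 groups did not overlap. Gsto1 did not pass (log2 difference -0.84, SE 0.36, limma adjusted p = 0.152), and neither did Aldh3a1 (log2 difference -1.02, SE 0.35, limma adjusted p = 0.097). Without RNase III replicate 1 the members called numbered 10 (5.22% of all genes passed), and without replicate 2 they numbered 7 (5.09% of all genes). Without either unwounded library 0 members passed, with 0.156% and 0.115% of all genes.

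Genes around these enzymes were followed in 12 lists, and limma called none of their members in RNase III against wounded corneas. Values here are for wounded against unwounded corneas, where 6.12% of all genes rose and 9.83% fell. With lists this short, counts near those shares are not read as results about a list. Of 19 measured carbonyl and quinone reductases, which reduce aldehydes and ketones, 2 rose and 6 fell. Akr1b8, an aldose reductase relative, rose by 5.29 (SE 0.43, limma adjusted p = 0.00468), to 352 and 195 TPM in wounded corneas, against 6.51 and 5.0 TPM in unwounded corneas. Akr1b7, the gene of the same subfamily, fell by 3.29 (SE 0.66, limma adjusted p = 0.0283), to 14.6 and 70.8 TPM in wounded corneas, against 304 and 350 TPM in unwounded corneas. The 2 reductases thus moved in opposite directions, as Aldh1a3 and Aldh1a1 did. Cbr2, a carbonyl reductase, fell by 1.58, to 218 and 212 TPM in wounded corneas, against 647 and 645 TPM in unwounded corneas. Xdh, which makes urate and superoxide, rose by 1.76. The list median was -0.77, against -0.26 over all genes.

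Of 20 measured genes of the Nrf2 pathway, the regulator of many such enzymes, 2 rose and 1 fell. Over all genes 6.12% rose and 9.83% fell, and these counts are near those shares. Hmox1, which breaks down haem, rose by 3.60 (SE 0.58, limma adjusted p = 0.0192), to 130 and 35.7 TPM in wounded corneas, against 3.54 and 6.18 TPM in unwounded corneas. Txn1, thioredoxin, rose by 1.44, and Ephx1, the microsomal epoxide hydrolase, fell by 1.24. Nqo1, a widely used target of the pathway, was at 19.8 and 29.4 TPM in wounded corneas and at 60.1 and 52.0 TPM in unwounded corneas and missed the threshold (log2 difference -1.18, limma adjusted p = 0.0789). Nfe2l2, the gene of Nrf2 itself, differed by 0.051. The list median was -0.13. In the glutathione list 1 of 18 genes fell (Chac1, which degrades glutathione, by 1.69) and none rose, with a median of -0.12. Its most abundant gene in unwounded corneas, Gpx4, which reduces lipid peroxides, was at 538 and 633 TPM in wounded corneas and at 605 and 644 TPM in unwounded corneas, and Gpx1 differed by 0.62. Of 7 membrane-bound transferases and relatives, 2 rose, Alox5ap by 2.92 and Ptges by 2.40, both of eicosanoid synthesis, and the median was -0.22. Alox5ap was at 71.4 TPM in the neutrophil-rich wounded replicate 1 and at 26.9 TPM in wounded replicate 2, against 3.91 and 6.16 TPM in unwounded corneas.

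Of 19 retinoid genes 2 rose and 1 fell, with a median of -0.39. For this and the next lists, 6.12% of all genes rose and 9.83% fell, and no list was tested against that. The binding proteins Crabp2 and Crabp1 rose by 1.80 and 1.46, and Cyp26b1, which degrades retinoic acid, fell by 2.49, to 6.07 and 5.19 TPM in wounded corneas, against 28.4 and 45.9 TPM in unwounded corneas. Of 11 nuclear receptors 3 fell, Ppara by 1.70, Nr3c1 by 1.22 and Rarg by 0.92, and the median was -0.48. None of 6 Ah receptor pathway genes passed (median -0.10), with Ahr at 6.61 and 3.79 TPM in wounded corneas and at 5.5 and 7.0 TPM in unwounded corneas. Of 11 epoxide, ester and thioester hydrolases 3 fell, Pon3 by 2.31, Ephx1, given above, and Pon2 by 0.91, with a median of -0.83. Of 13 genes of conjugation and its cofactors 3 fell, Papss1 by 1.31, Slc35b2 by 1.0 and Nat2 by 0.82, with a median of -0.77. Papss1 makes the sulfate donor and Slc35b2 carries it into the Golgi apparatus. Of 11 P450 partners 1 rose, Hmox1, with a median of 0.011. Cyb5a, which passes electrons to P450 enzymes, was at 151 and 227 TPM in wounded corneas and at 407 and 353 TPM in unwounded corneas and did not pass (limma adjusted p = 0.0706), and Pgrmc1, a haem-binding partner, differed by -0.83. Of 10 export pumps and other transporters 1 fell, Abcc4 by 1.12, with a median of -0.041, and the most abundant, Slco3a1, differed by -0.92. Of 14 superoxide and peroxide enzymes 3 rose, Sod3 by 2.49, Txn1 and Sod1 by 0.64, with a median of 0.25.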

How the data were processed

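RNA sequencing of 6 mouse cornea samples was analysed. Sample titles gave each group and its replicate numbers. The authors deposited 1 table of TPM values by Ensembl gene, a unit that keeps no read depth, so no counting interval can be given. Per the submitters' processing notes STAR, RSEM, DESeq2 and mm10 were used, with no version or role given. Identifiers were matched to symbols (54409 matched, 37 did not), and gene types, coordinates and overlaps came from GENCODE M21 on GRCm38. Genes at 1 TPM or more in at least 2 samples were kept. A group-means model of all 6 samples on log2(TPM + 1) was fitted with limma 3.58.1 (R 4.3.3) and a mean-variance trend. It had 3 residual degrees of freedom and 3.6 prior ones. Tests were two-sided, and p-values were adjusted by Benjamini and Hochberg's method over 14748 genes, with a threshold of 0.05. A pseudocount of 1 understates the change of low genes. The steps were tested on simulated data with 200 changed genes and spreads drawn at random across genes. There 1% of genes with a log2 difference of 1 and 49.6% of those with 2 were recovered. A gene that did not pass may thus still differ. Reads that could be shared were looked for as 50-mers also present in transcripts of other genes: 11 members had over 20% of them shared, and 20 members have exons that overlap a gene on the other strand. Strand-specific counting is not given in the sources used here. Symbols with these prefixes but of other families were left out, 18 genes such as Fmod, Gstcd and Adhfe1.

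The members, the 12 pathway lists and the 13 marker lists were chosen with earlier results of these data known. Named genes were Aldh3a1, the 3 most abundant members of each family in unwounded corneas, the 20 largest differences past the threshold in wounded against unwounded corneas, the 10 largest without overlap in RNase III against wounded corneas, and from each pathway list up to 4 called genes, or its 2 most abundant genes if fewer than 2 were called. Ces1h, Cyp2w1, Sult1b1, Cyp3a13, Cyp2s1, Cyp4f18, Gstp1, Aldh18a1 and Gstm1, and some further genes of the lists, were named after their values were seen. Promoter sequences are those of RefSeq for GRCm38.p6. Alternatives tried were a pseudocount of 0.1, all genes without the filter, scaling by median-of-ratios size factors, a replicate block, a fit of the compared groups alone, a fit without the trend, and each library left out once. Counts without genes that passed the level through 1 group only were added after seeing the data.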

Additional observations from a re-analysis of the deposited data

How the results depend on the processing

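The p-values rest on 2 samples a group and on TPM, in which a few abundant genes set the scale for all others. Of the members, 23 fell and 4 rose in wounded against unwounded corneas. With no filter on low values 5 fell and 2 rose among 24958 genes tested, of which 1.78% passed. After median-of-ratios scaling 13 fell and 6 rose, and 17.1% of all genes passed. Leaving out 1 library gave 0 to 20 that fell and 0 to 5 that rose. A group left with 1 sample was assumed to vary like the others. The replicate numbers are shared only as numbers, since the deviations of same-numbered samples correlated by 0.146, 0.103 and -0.047 between the 3 pairs of groups. The replicate block left 15 that fell and 3 that rose in wounded against unwounded corneas, and 15 and 2 with RNase III against unwounded corneas, and in that order 13.8% and 9.83% of all genes passed. In that last comparison 17 fell and 3 rose as reported, when 9.3% of all genes passed. With no filter 4 fell and 0 rose, and 0.276% of all genes passed. After median-of-ratios scaling 17 fell and 4 rose, and 13.5% of all genes passed. Leaving out 1 library there gave median differences of -0.80 to -0.73 over the members and -0.26 to -0.074 over all genes. The calls depended on the library left out, as given above. In RNase III against wounded corneas 0 members passed under each of these settings. Scaling turned the small differences of Aldh2 (0.24), Ces2g (0.16), Cyp2j6 (0.051) and Cyp4f13 (0.059) positive in wounded against unwounded corneas. Leaving out 1 library gave differences across 0 for Aldh2 (-0.14 to 0.029), Cyp1b1 (-0.18 to 0.26), Cyp4f13 (-0.44 to 0.026), Fmo1 (-0.061 to 0.79), Gsta4 (-0.086 to 0.11), Sult5a1 (-1.44 to 0.66) and Ugt1a6a (-0.97 to 0.18), none of which was called. The cause was not tested.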

Other observations

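Members that lie near each other did not always move together. There were 10 clusters of at least 3 members, each within 500 kb of the next, which hold 39 members. In wounded against unwounded corneas 9.83% of all genes fell and 6.12% rose. The Cyp2b19, Cyp2a5 and Cyp2f2 cluster on chromosome 7 had 3 of 3 members that fell. The Adh cluster on chromosome 3 had 3 of 5. After median-of-ratios scaling the calls of Cyp2b19, Cyp2f2, Adh1 and Adh7 were lost. The Ces1 and Ces2 clusters on chromosome 8 and the Cyp4a cluster on chromosome 4 hold members that had reached 1 TPM only in unwounded corneas. These are Ces1h, Ces2b, Cyp4a12a and Cyp4b1, and the counts of these clusters are not given here. The Gsta4, Gsta1 and Gsta2 cluster on chromosome 9 had 1 of 3 that fell. The Gstm cluster on chromosome 3 had 0 of 6, the Gstt cluster on chromosome 10 had 0 of 3 and the Cyp4f cluster on chromosome 17 had 0 of 4 past the threshold in either direction. Genes of a cluster can share reads and regulatory sequence and are not independent. In the cluster of Aldh3b1, Aldh3b2, Gstp1, Gstp2 and Gstp3 on chromosome 19, 1 of 5 members rose and none fell.

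Other marker sums are given as values. Limbal and basal epithelial markers, 10 genes, summed to 24047 and 26780 TPM with RNase III, 27952 and 27252 TPM in wounded corneas, against 14991 and 13798 TPM in unwounded corneas. Wound-edge keratinocyte markers, 10 genes, summed to 17617 and 24245 TPM with RNase III, 20286 and 18312 TPM in wounded corneas, against 6760 and 5714 TPM in unwounded corneas. Conjunctival and goblet cell markers, 9 genes of which Tff3 was listed at 0 throughout, summed to 2618 and 1272 TPM with RNase III, 908 and 2606 TPM in wounded corneas, against 3009 and 2473 TPM in unwounded corneas. Monocyte and macrophage markers, 13 genes, summed to 277 and 556 TPM with RNase III, 1390 and 733 TPM in wounded corneas, against 290 and 207 TPM in unwounded corneas. Lens markers, 13 genes, reached 4834 TPM in RNase III replicate 2 and lay between 256 and 661 TPM in the other libraries. Pigment cell and retina markers, 10 genes, reached 4973 TPM in unwounded replicate 2 and lay between 141 and 1690 TPM in the others. Corneal endothelial markers, 7 genes, summed to 230 and 297 TPM with RNase III, 178 and 315 TPM in wounded corneas, against 405 and 384 TPM in unwounded corneas. Liver and gland markers, 11 of 12 found and Esp4 listed at 0 throughout, summed to 317 and 154 TPM with RNase III, 198 and 235 TPM in wounded corneas, against 228 and 269 TPM in unwounded corneas. Skeletal muscle markers, 10 genes, lay between 14.2 and 123 TPM, and vessel markers, 9 genes, between 11.5 and 62.5 TPM.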
